A study of Homo sapiens with 2 samples.

Results

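The genes described here encode the proteins of the cytosolic and mitochondrial ribosomes. They were taken by symbol, as probe sets with a single gene symbol that begins with RPL, RPLP, RPS, MRPL or MRPS and a number, leaving out the RPS6K genes and symbols ending in P and digits, the form of pseudogene names, with the probe set of highest mean standing for each gene. This gave 131 of the 14884 named genes on the arrays. Of these, 45 encode cytosolic ribosomal proteins, 73 mitochondrial ribosomal proteins and 8 paralogs of cytosolic ribosomal proteins. A further 4 are antisense or divergent RNAs named after a ribosomal protein gene and 1 is a readthrough of RPL36A into HNRNPH2, and these 5 are given apart.

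RNA came from A549, an established line of human lung adenocarcinoma cells, 24 hours after transfection with an siRNA against p62 (siP62) or a control siRNA (siCONTROL). Small interfering RNAs trigger destruction of the mRNA they match, and p62, encoded by SQSTM1, is a ubiquitin-binding receptor of selective autophagy. Both groups were the same line and differed in the siRNA, and each was 1 Affymetrix whole-transcript array. A second siRNA sequence was not analysed here. Every value is therefore a single measurement with no replicate error, and no difference between the 2 arrays could be tested. SQSTM1 read 7.30 with siP62, against 8.64 with siCONTROL, a difference of -1.34 in deposited log2 values.

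A ribosome is built from a large and a small subunit, each made of ribosomal RNA and proteins. The cytosolic ribosome translates nuclear-encoded mRNAs, and its protein genes are transcribed at a high rate and in balance with each other, because the proteins enter the particle in equal numbers. Many of their mRNAs begin with a run of pyrimidines through which mTOR signalling sets their translation. The mitochondrial ribosome translates the few mRNAs of the mitochondrial genome, which encode subunits of the respiratory chain and ATP synthase. All of its proteins are encoded in the nucleus and imported, some with counterparts in bacteria and others found only in mitochondria. Paralogs such as RPL22L1 can take the place of their partner in the particle or are used in particular tissues.

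A gene was kept for counting when at least 1 of its values reached 5.35, which is the median of all named probe sets. Of the 126 protein-coding members 119 were kept, namely 42 of 45 cytosolic, 71 of 73 mitochondrial and 6 of 8 paralog genes. The genes RPL22, RPL32, RPS7, MRPL23, MRPL52, RPL3L and RPL10L lay below the limit in both arrays. RPL31, RPL37A, RPL22L1 and MRPL22 were kept through their siP62 value alone and RPS27L through its siCONTROL value alone, so that their differences could not have been of the other sign. Differences are siP62 minus siCONTROL on the log2 scale. All 7896 kept genes had a median difference of 0.04 and a robust SD over genes of 0.22, which describes the spread over genes and not an error. Values of different probe sets do not give the relative abundance of their mRNAs and are not compared.

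Cytosolic ribosomal protein genes were, on balance, slightly higher in the siP62 array, and mitochondrial ones were spread about 0. The median difference of the kept cytosolic genes was 0.115 (quartiles 0.025 and 0.19), against 0.04 over all kept genes (quartiles -0.11 and 0.18). Of the 42, 36 were above 0, 5 below and 1 equal, while 55.4% of all kept genes were above 0. Above the median of all kept genes lay 30 of the 42, against 48.7% of all kept genes. These counts include RPL31 and RPL37A, whose sign was fixed by the filter. With both values at or above the limit, 34 of 40 cytosolic genes were above 0 and 5 below. Of these 40, 28 lay above the median of all genes kept in that setting, which was chosen after the values were seen. Without the filter 38 of the 45 cytosolic genes were above 0, beside 49.2% of all named genes. The kept mitochondrial genes had a median of 0.05 (quartiles -0.05 and 0.17), with 39 above 0, 31 below and 1 equal. Of the 71, 36 lay above the median of all kept genes. Ribosomal protein genes have many processed copies in the genome, and the probes were not checked against them. In RNA from a whole culture, less RNA per cell and fewer cells of one kind cannot be told apart.

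Few members differed by a large fold. At 1.5-fold or more, 2 cytosolic genes, RPL9 and RPL6, were higher in the siP62 array, beside 2.08% of all kept genes. The paralog RPL22L1 was also past that limit, but against a siCONTROL value under the filter limit. No kept member was lower by 1.5-fold, beside 1.6% of all kept genes. No member with both values above the filter limit passed 2-fold, beside 0.165% of all kept genes on the higher side and 0.228% on the lower side. At 1.2-fold, a limit chosen after the values were seen, 9 of 42 cytosolic and 9 of 71 mitochondrial genes were higher, against 16% of all kept genes. At that limit 4 mitochondrial and 0 cytosolic genes were lower, against 10.5% of all kept genes. The 9 cytosolic genes that were higher included RPL31 and RPL37A. Both were kept through their siP62 value alone, so the filter fixed their sign.

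**Figure D1:**
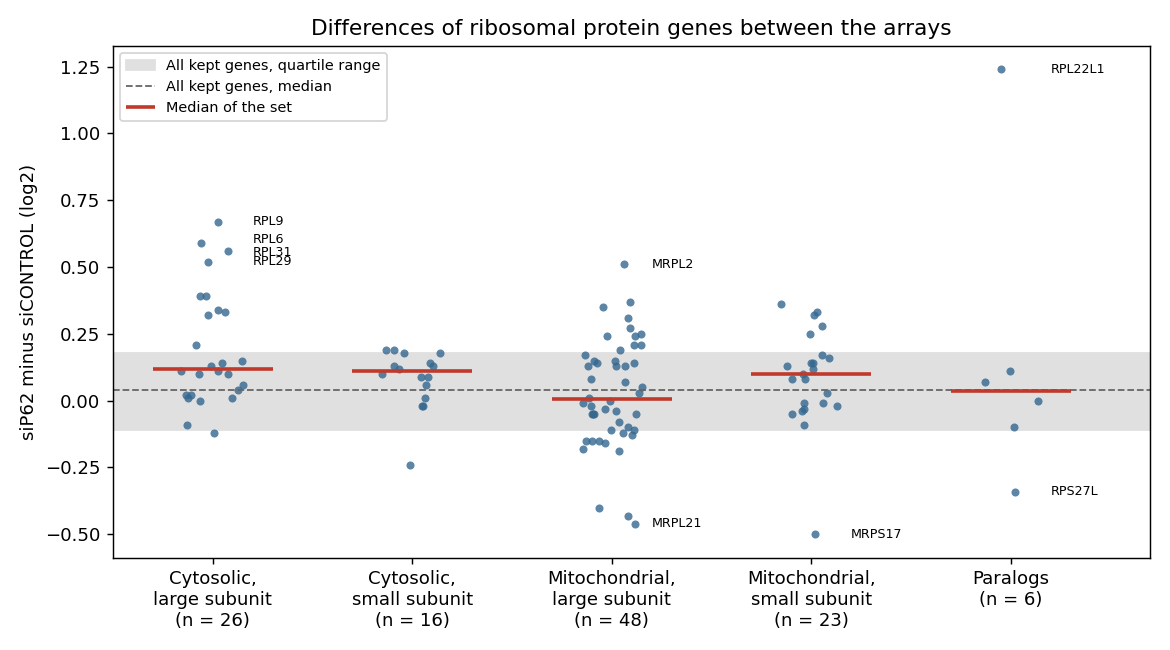
Each point is a kept gene, placed by its siP62 minus siCONTROL difference on the log2 scale and grouped by ribosome and subunit. Red lines are medians of the sets, the dashed line and grey band are the median (0.04) and quartile range (-0.11 to 0.18) of all kept genes. The highest paralog point is RPL22L1, whose siCONTROL value was under the filter limit, and the points above 0.5 in the cytosolic sets all belong to the large subunit.

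The cytosolic genes with the highest differences all encoded large subunit proteins. Counted down to the first small subunit gene, the 10 highest of the 42 kept genes belonged to the large subunit. That subunit accounts for 26 of the 42. Of the 10 highest, RPL31 and RPL37A were kept through their siP62 value. Among the 40 genes with both values above the limit, 24 were of the large subunit. The 8 highest of these 40, counted in the same way, were all of the large subunit. The requirement on both values was chosen after the values were seen. The large subunit genes had a median difference of 0.12 with an upper quartile of 0.34, or 0.32 with both values above the limit. The 16 small subunit genes had nearly the same median, 0.11, with an upper quartile of 0.15 and a highest value of 0.19. The subunits differed by 0.01 in their medians and mainly in the upper range, a comparison between genes that was not tested. The order of the medians depended on the filter, and both were 0.11 with both values at or above the limit. The large subunit had 0.11 and the small 0.12 without a filter, and 0.10 and 0.125 with the filter at the 70th percentile. In the other settings the large subunit median was the higher one.

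RPL9, a conserved large subunit protein, had 6.86 with siP62, against 6.19 with siCONTROL, a 1.59-fold higher value. Of all kept genes 1.28% differed by as much on the higher side. RPL6, which lies on the outer surface of the large subunit in eukaryotes, had 6.79 with siP62, against 6.20 with siCONTROL. Its difference of 0.59 lay just past the 1.5-fold limit, which is 0.58 on the log2 scale. RPL31, found near the exit of the tunnel through which the nascent chain leaves, had 5.46 with siP62 and 4.90 with siCONTROL. The control value lay below the filter limit, so no fold is given for it. RPL29, a small basic protein of the large subunit, had 6.81 with siP62 and 6.29 with siCONTROL, a difference of 0.52.

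Differences of between 0.3 and 0.4 were found in 5 further large subunit genes. RPL27 had 10.35 with siP62 and 9.96 with siCONTROL. RPL37A, a zinc-binding protein, had 5.43 with siP62 and 5.04 with siCONTROL, so its difference of 0.39 equals that of RPL27 but starts below the filter limit. RPL30 had 5.83 with siP62 and 5.49 with siCONTROL. RPL36 had 8.30 with siP62, against 7.97 with siCONTROL. RPL17, which lines the exit tunnel, had 8.82 with siP62 and 8.50 with siCONTROL. These 5 were grouped by the size of their difference, so its similarity among them follows from the grouping. RPL10A, a protein of the mobile stalk on the large subunit, came next with a difference of 0.21.

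The remaining large subunit genes differed by 0.15 or less in either direction. Differences from 0.10 to 0.15 were those of RPL34 (0.15), RPL35A (0.14), RPL18 (0.13), RPL12 and RPL38 (0.11 each), and RPL24 and RPL35 (0.10 each). RPL12 forms the base of the stalk that recruits elongation factors, and RPL24 reaches across to the small subunit. RPL39, a short protein in the wall of the exit tunnel, differed by 0.06 and RPL8, near the peptidyl transferase centre, by 0.04. Values were nearly the same in both arrays for RPL10, which is added late in the maturation of the subunit, with 12.36 with siP62 and 12.34 with siCONTROL. RPL19 (0.02), RPL26 (0.01) and RPL41 (0.00) also differed little. RPL11, which binds the p53 ligase MDM2 when ribosome assembly is disturbed, differed by 0.01. Lower in the siP62 array were RPL28, with 7.59 against 7.71 in the siCONTROL array, and RPL14, with 6.35 against 6.44 in the siCONTROL array. Below the filter limit in both arrays, RPL32 had 5.16 with siP62 and 5.06 with siCONTROL.

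**Figure D2:**
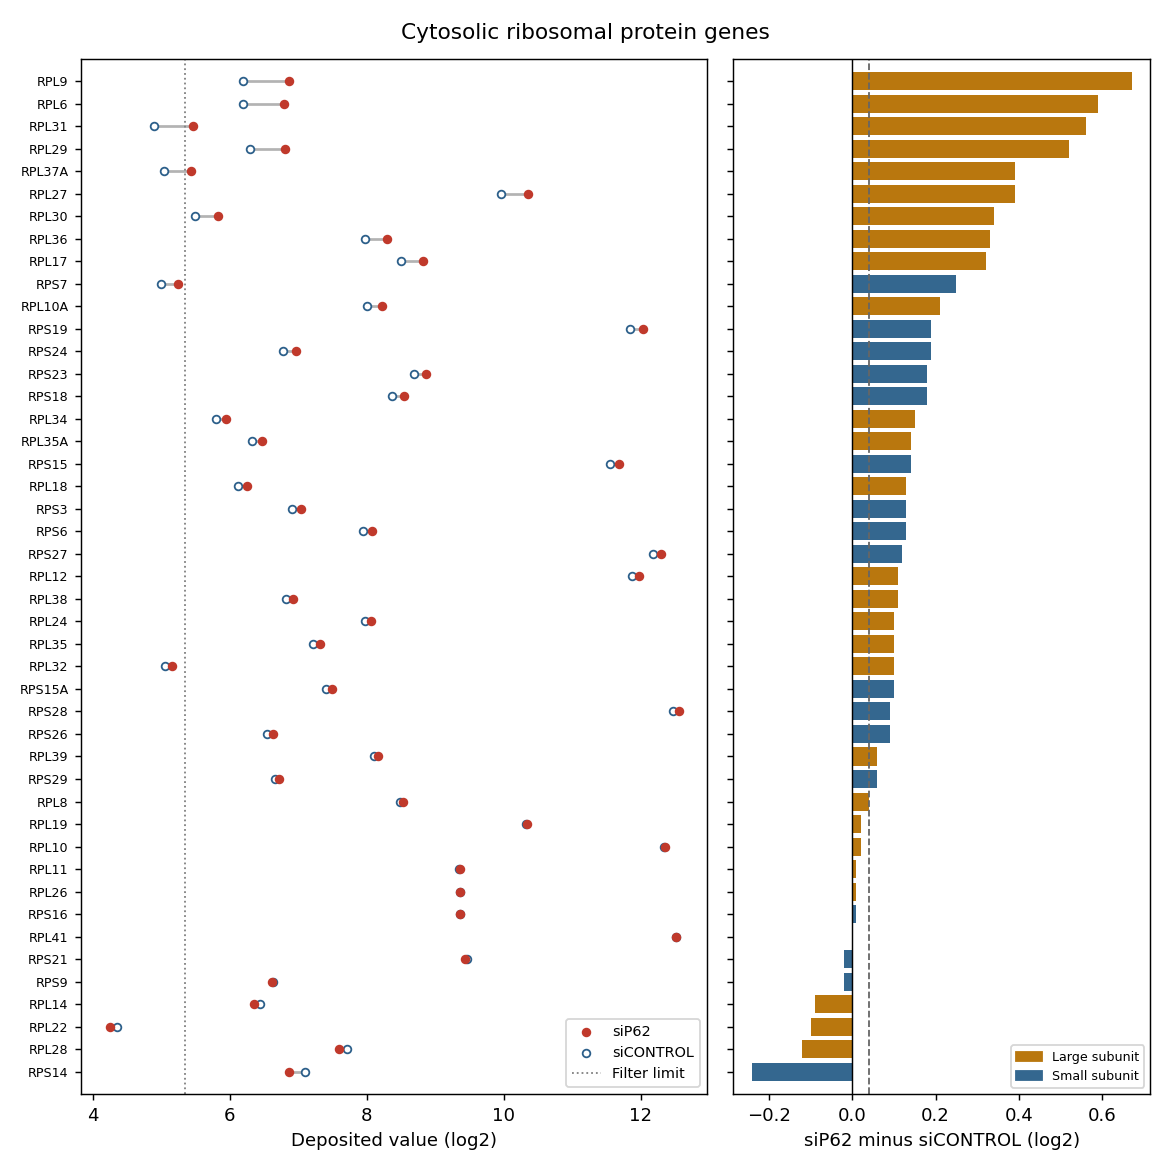
Left, deposited log2 value of each of the 45 cytosolic ribosomal protein genes in the siP62 (filled) and siCONTROL (open) arrays, with the filter limit of 5.35 dotted. Right, the difference of each gene with the median of all kept genes dashed. RPL9 (0.67) is at the top and RPS14 (-0.24) at the bottom. Of the genes at high values, RPL41 (0.00) and RPS28 (0.09) lie close to 0, and RPS19 (0.19) and RPL27 (0.39) lie further from it.

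Among the small subunit genes the differences lay close together, apart from RPS14. RPS14, a protein of the platform near the mRNA exit, had 6.86 with siP62, against 7.10 with siCONTROL, the lowest difference of the cytosolic genes at -0.24. As low a difference was found in 12.7% of all kept genes. RPS19, the gene most often mutated in Diamond-Blackfan anaemia, had 12.04 with siP62 and 11.85 with siCONTROL. RPS24 also differed by 0.19, with 6.97 with siP62 and 6.78 with siCONTROL. RPS23, a protein of the decoding centre, and RPS18, at the head of the subunit, each differed by 0.18. RPS15 differed by 0.14. RPS6, the substrate of the S6 kinases, had 8.08 with siP62 and 7.95 with siCONTROL. RPS3, at the mRNA entry, had 7.04 with siP62 and 6.91 with siCONTROL, the same difference as RPS6.

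The other small subunit genes differed by 0.12 or less. RPS27, a zinc-binding protein, had 12.30 with siP62 and 12.18 with siCONTROL. RPS15A differed by 0.10, RPS26 and RPS28, both at the mRNA exit, by 0.09 each and RPS29 by 0.06. RPS16 was 0.01 higher, and RPS9 and RPS21 were each 0.02 lower. RPS7 was below the filter limit in both arrays, with 5.25 with siP62 and 5.00 with siCONTROL.

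The mitochondrial ribosomal protein genes were spread to either side, with a lowest difference of -0.50 and a highest of 0.51. The 48 kept genes of large subunit proteins had a median difference of 0.0050, with 24 above 0 and 23 below. The 23 genes of small subunit proteins had a median of 0.10, with 15 above 0 and 8 below. Above 0 were 50% of the large and 65.2% of the small subunit genes, beside 55.4% of all kept genes. Here MRPS30 and MRPS18A, named for the small subunit, were counted with the large subunit, where their proteins sit. The large subunit median turned to the lower side when the table was centred (-0.035 after subtraction of the median of all kept genes), so its sign is not settled.

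MRPL2, a conserved protein close to the peptidyl transferase centre, had the highest difference of the mitochondrial genes. It had 8.93 with siP62, against 8.42 with siCONTROL, and 3.61% of all kept genes were as high. MRPL42 had 7.87 with siP62 and 7.50 with siCONTROL. MRPS27, a protein with pentatricopeptide repeats, had 5.88 with siP62 and 5.52 with siCONTROL. MRPL45, which anchors the ribosome to the inner membrane, had 9.59 with siP62 and 9.24 with siCONTROL. The last 3 of these differed by 0.35 to 0.37, close to the 0.39 of RPL27 among the cytosolic genes. MRPS12, of the decoding centre, had 7.91 with siP62 and 7.58 with siCONTROL. MRPS23, a mitochondrion-specific protein, had 8.65 with siP62 and 8.33 with siCONTROL. MRPL13 (0.31) and MRPS14 (0.28), both with bacterial counterparts, completed the 8 highest.

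At the lower end, 4 kept genes stood away from the others. MRPS17, a protein that binds the small ribosomal RNA, had 7.34 with siP62 and 7.84 with siCONTROL, a difference of -0.50. MRPL21, of the large subunit, had 6.52 with siP62 and 6.98 with siCONTROL. MRPL33 had 6.95 with siP62 and 7.38 with siCONTROL. MRPL20, which organises large subunit ribosomal RNA in bacteria, had 6.63 with siP62 and 7.03 with siCONTROL. A step of 0.21 separated these 4 from the next lowest gene, MRPL40, and all 4 have bacterial counterparts, as do 41 of the 71 kept genes. As low as MRPS17 were 2.66% of all kept genes and as low as MRPL20 4.81%. MRPL23, below the filter limit with 4.78 with siP62 and 5.16 with siCONTROL, was lower in the table too, from values that cannot be told from background.

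The next lowest mitochondrial genes were within -0.19 of 0. MRPL40 had 6.51 with siP62 and 6.70 with siCONTROL. MRPS30 had 7.62 with siP62 and 7.80 with siCONTROL. MRPL27 differed by -0.16, and MRPL47, MRPL51 and MRPL15 by -0.15 each. The remaining kept mitochondrial genes lay between -0.13 (MRPL10) and 0.27 (MRPL43). Genes of proteins with a bacterial counterpart had a median difference of 0.00 over 41 kept genes, with 20 above 0, 20 below and 1 equal. Genes of mitochondrion-specific proteins had a median of 0.08 over 30, with 19 above 0 and 11 below. Above 0 were 48.8% of genes with a counterpart and 63.3% of specific genes, beside 55.4% of all kept genes. Within the large subunit the medians were -0.035 over 28 genes with a counterpart and 0.10 over 20 specific genes, and within the small subunit 0.12 over 13 and 0.08 over 10. In the small subunit the order of the classes depended on the measure, since the means were 0.064 with a counterpart and 0.11 for specific genes. No difference between the classes was tested.

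**Figure D3:**
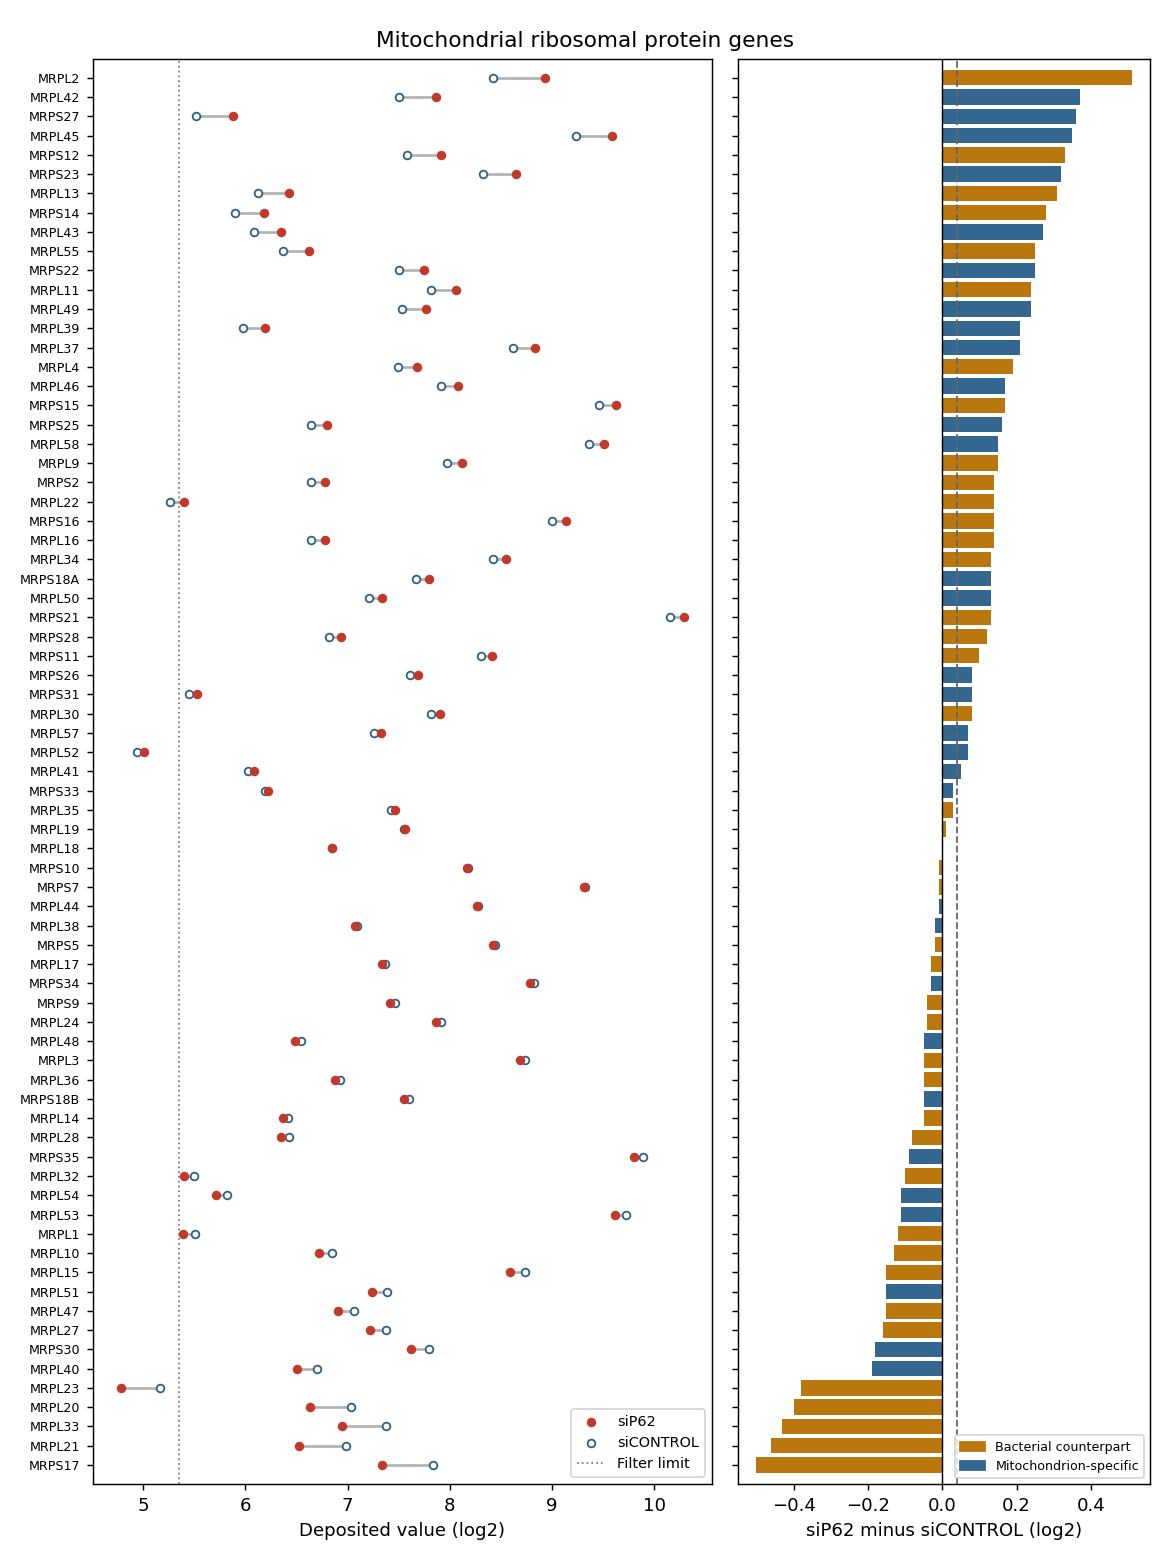
Left, deposited log2 value of each of the 73 mitochondrial ribosomal protein genes in the siP62 (filled) and siCONTROL (open) arrays, with the filter limit dotted. Right, the difference of each gene, coloured by whether the protein has a bacterial counterpart, with the median of all kept genes dashed. MRPL2 (0.51) and MRPS17 (-0.50) mark the ends, and MRPS17, MRPL21, MRPL33, MRPL20 and MRPL23 form the step at the bottom.

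RPL22L1 encodes a close relative of RPL22, and in mouse cells the absence of Rpl22 raises Rpl22l1. It had 6.20 with siP62, against 4.96 with siCONTROL, the largest difference among the members. The siCONTROL value lay below the filter limit and the gene was kept through its siP62 value, so neither the size of the difference nor its rank can be read. RPL22 itself lay below the limit in both arrays, with 4.25 with siP62 and 4.35 with siCONTROL, a difference of -0.10. Neither value of RPL22 is shown to be above background, so these arrays give no level of the partner.

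RPS27L, a paralog of RPS27 that p53 induces, had 5.30 with siP62, against 5.64 with siCONTROL, a difference of -0.34 whose sign was fixed by the filter, as the siP62 value lay under the limit. Its partner RPS27 differed by 0.12. RPL39L, which is used in the testis and in some tumours, had 6.34 with siP62 and 6.44 with siCONTROL, while RPL39 differed by 0.06. RPL26L1 had 6.70 with siP62 and 6.59 with siCONTROL, beside a difference of 0.01 for RPL26. RPL39L and RPL39 kept opposite signs under the centrings. RPL26 turned to -0.03 once the median of all kept genes was subtracted, so the pair of RPL26L1 and RPL26 had no settled common direction. RPL36AL differed by 0.07 and the nucleolar paralog RPL7L1, at 7.42 in both arrays, by 0.00, and their partners RPL36A and RPL7 were not analysed here. The striated muscle paralog RPL3L had 5.04 with siP62 and 5.16 with siCONTROL, both under the limit. The testis paralog RPL10L had 2.69 with siP62 and 2.76 with siCONTROL. The median difference of the 6 kept paralogs was 0.035, close to that of all kept genes, and -0.035 over all 8.

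**Figure D4:**
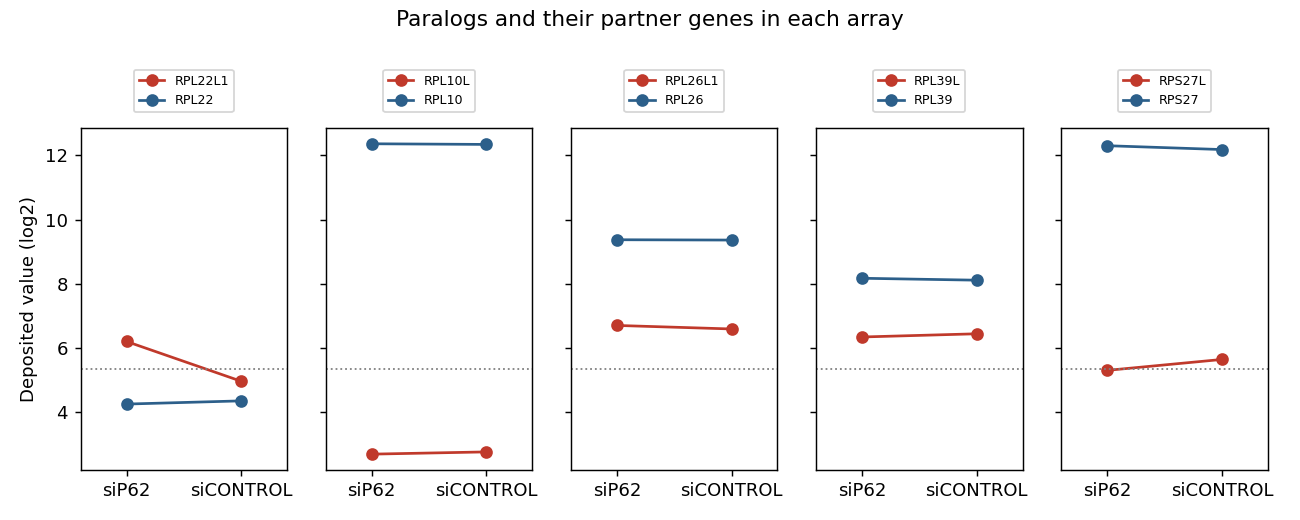
Deposited log2 values of 5 paralogs (red) and their partner genes (blue) in the siP62 and siCONTROL arrays, with the filter limit of 5.35 dotted. The slope within a gene is the difference, whereas the heights of different genes cannot be compared. RPL22L1 crosses the limit, RPS27L crosses it the other way, and the other lines are nearly flat.

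The promoters of RPL22L1 and its partner RPL22 are shown as a paralog pair. RPL22L1 was kept through its siP62 value alone, so the rank of its difference among the members cannot be read. Sequences are from RefSeq (GRCh38.p14), written in the direction of transcription with 250 bases before and 50 bases after the annotated start. RPL22L1 is at chr3:170870146-170870445 and RPL22 at chr1:6199546-6199845, both on the minus strand. Capitals mark the letters TATAAA (the TATA box) and AAGATGGC (bound by YY1) in RPL22L1 and CTCTTT (a pyrimidine run) in RPL22.
RPL22L1: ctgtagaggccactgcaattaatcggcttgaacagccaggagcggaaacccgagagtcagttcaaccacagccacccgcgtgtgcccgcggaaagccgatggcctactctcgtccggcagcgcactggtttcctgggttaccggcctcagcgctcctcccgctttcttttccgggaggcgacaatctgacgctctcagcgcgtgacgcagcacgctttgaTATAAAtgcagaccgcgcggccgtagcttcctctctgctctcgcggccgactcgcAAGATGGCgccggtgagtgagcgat
RPL22: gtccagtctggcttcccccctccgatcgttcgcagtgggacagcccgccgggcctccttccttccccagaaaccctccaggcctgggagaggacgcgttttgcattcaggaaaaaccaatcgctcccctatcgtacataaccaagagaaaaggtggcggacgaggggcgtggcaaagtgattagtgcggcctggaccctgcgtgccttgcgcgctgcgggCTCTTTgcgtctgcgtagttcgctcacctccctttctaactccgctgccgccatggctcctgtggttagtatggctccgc

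RPL22L1 held TATAAA 30 bases before the start and AAGATGGC 25 bases after it, and RPL22 held neither. The CTCTTT of RPL22 lies 30 bases before its annotated start, and so outside the annotated mRNA. RPL22L1 has the pyrimidines cttcctctct across its annotated start, which a search for the letters CTCTTT does not find. The capitals therefore do not show which of the pair begins with a pyrimidine run. TATAAA was found on either strand of 11.5% of all 35116 promoters of the same length, of 5.03% of the promoters of kept genes and of 2 of 42 cytosolic ribosomal protein promoters. AAGATGGC on either strand was in 2.89% of all promoters and in 5.86% of those of kept genes.

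Promoters could be matched for 113 of the 126 protein-coding members, and the motifs were found at different shares in cytosolic and mitochondrial genes, a difference that was not tested. CTCTTT was found on the sense strand between 10 bases before and 50 bases after the start in 12 of 42 cytosolic promoters (28.6%), in 0 of 65 mitochondrial promoters, in 2.17% of all promoters and in 1.79% of those of kept genes. On either strand of the 300 bases it was in 17 cytosolic and 11 mitochondrial promoters and in 15.7% of those of kept genes. CCGGAAG, the core of the sites of ETS factors, was on either strand of the 300 bases in 28 of 65 mitochondrial promoters (43.1%), in 12 of 42 cytosolic promoters (28.6%), in 10.3% of all promoters and in 19.8% of those of kept genes. AAGATGGC was in 19 of 65 mitochondrial promoters (29.2%) and in 4 of 42 cytosolic ones (9.52%). CACGTG, the site of MYC and related factors, was in 5 mitochondrial and 2 cytosolic promoters, in 7.26% of all promoters and in 10.2% of those of kept genes. The NRF1 motif was in 1 of each, in 1.24% of all promoters and in 2.6% of those of kept genes. CACGTG and the NRF1 motif are their own reverse complements, and no motif contains another.

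The stretch from 60 bases before to 50 bases after the start is shown for 4 genes at the ends of the ranges, to set these letters beside the differences. RPL9 (chr4:39458873-39458982, minus strand) and RPS14 (chr5:150449690-150449799, minus strand) are the highest and the lowest cytosolic genes. MRPL42 (chr12:93467454-93467563, plus strand) is the second highest and MRPS17 (chr7:55951817-55951926, plus strand) the lowest mitochondrial gene. Capitals mark CTCTTT and CTTCCGG, the reverse complement of CCGGAAG, in RPS14 and AAGATGGC in MRPL42.
RPL9: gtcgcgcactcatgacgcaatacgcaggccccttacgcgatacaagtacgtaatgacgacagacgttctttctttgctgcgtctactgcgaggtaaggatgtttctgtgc
RPS14: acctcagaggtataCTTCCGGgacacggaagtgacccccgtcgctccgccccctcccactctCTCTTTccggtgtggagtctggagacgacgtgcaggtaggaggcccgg
MRPL42: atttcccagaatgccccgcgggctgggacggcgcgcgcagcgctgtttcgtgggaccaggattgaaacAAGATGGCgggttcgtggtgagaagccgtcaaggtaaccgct
MRPS17: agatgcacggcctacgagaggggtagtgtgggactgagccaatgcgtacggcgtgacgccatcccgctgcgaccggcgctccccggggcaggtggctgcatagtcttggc

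RPS14, the lowest cytosolic gene, held CTCTTT 2 bases after its start. Its full 300 bases held 3 CTCTTT and 2 CCGGAAG. RPL9, the highest, held none of the 6 motifs in the stretch shown but 1 CTCTTT elsewhere in its 300 bases. The RPL9 stretch has the pyrimidines ttctttcttt shortly after its start, which a search for CTCTTT does not find. Its lack of these letters there is therefore not a lack of a pyrimidine run. Over the full 300 bases, among the kept cytosolic genes with a matched promoter, the median difference was 0.13 in 15 genes with CTCTTT on either strand and 0.115 in 24 without it. Among the mitochondrial genes the median was -0.010 in 27 genes with CCGGAAG and 0.10 in 37 without it. It was -0.010 in 18 genes with AAGATGGC and 0.075 in 46 without it. For CTCTTT the medians were 0.00 in 11 genes and 0.07 in 53 without it. With CACGTG the median was the higher one, 0.21 in 5 genes against 0.03 in 59 without it. No difference by motif was tested. These are descriptions of letters in the sequence, and binding of a factor was not measured.

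Other genes of translation were described by lists chosen by name and role. Many listed genes were not among the named genes on the arrays, so each median describes only the part found. Found were 72 of 111 ribosome biogenesis genes, 23 of 62 cytosolic translation factors and 40 of 53 genes of mitochondrial translation and assembly. Of ribosomal protein genes named outside the scheme, 4 of 10 were found. The 70 kept genes of ribosome biogenesis, which transcribe and process ribosomal RNA and assemble the subunits, had a median difference of -0.010, with 31 above 0 and 36 below. Of the 70, 44.3% were above 0, beside 55.4% of all kept genes. At 1.5-fold 2 were higher and 0 lower, beside 2.08% and 1.6% of all kept genes. RSL24D1, an assembly factor of the large subunit, had 8.65 with siP62 and 7.96 with siCONTROL. RRP36, which acts in early processing of ribosomal RNA, had 9.19 with siP62 and 8.55 with siCONTROL. The factors of small subunit maturation EMG1 and BYSL each differed by 0.51, EMG1 from a siCONTROL value of 5.25 under the limit. The lowest were NVL (-0.44), SBDS (-0.41) and NAT10 (-0.28), of which SBDS, with 8.83 with siP62 and 9.24 with siCONTROL, acts in a late step that frees the large subunit for use. The median of the biogenesis list lay below that of all kept genes, whereas that of the cytosolic ribosomal protein genes lay above it. The mean of the biogenesis list was 0.035, as was that of all kept genes, and that of the cytosolic ribosomal protein genes was 0.15.

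Cytosolic translation factors had a median difference of 0.11 over 21 kept genes, with 13 above 0 and 7 below. Most of the 62 listed factors were not found, so this is not a median of translation factors in general. The share above 0 was 61.9%, beside 55.4% of all kept genes. The mean of the 21 kept factors was 0.029, beside 0.035 over all kept genes. EIF4EBP2, which represses initiation by binding the cap-binding protein eIF4E, had 9.26 with siP62 and 10.05 with siCONTROL, the only one lower by 1.5-fold, beside 1.6% of all kept genes. PDCD4, an inhibitor of the helicase eIF4A, had 7.94 with siP62 and 8.48 with siCONTROL. EIF4H differed by -0.26. EIF5A (0.46), GSPT2 (0.43) and EIF5A2 (0.39) were the highest. EIF5A and EIF5A2 act in elongation and GSPT2 in termination. The initiation repressor EIF4EBP1 differed by 0.06. Among the other elongation factors, EEF1A1 differed by -0.05 and EEF2 by 0.00, while EEF1A2 (0.25), EEF1D (0.15) and EEF1G (0.12) were higher. Whether genes of one role share a direction was not tested.

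Mitochondrial translation factors and mitoribosome assembly genes had a median difference of 0.090 over 38 kept genes, with 31 above 0, 6 below and 1 equal. The share above 0 was 81.6%, beside 55.4% of all kept genes and 85.7% of the cytosolic ribosomal protein genes. At 1.5-fold 3 were higher and 0 lower, beside 2.08% and 1.6% of all kept genes, and each of the 3 calls depended on the processing or the filter. MTRF1L, a release factor, had 8.09 with siP62 and 7.42 with siCONTROL, and its difference of 0.67 was 0.51 with the mean over probe sets. MRM1, a methyltransferase of mitochondrial ribosomal RNA, had 7.33 with siP62 and 6.71 with siCONTROL, and its difference of 0.62 was 0.58, just under the 1.5-fold limit, once the median was subtracted. MTIF3, an initiation factor, had 5.75 with siP62 and 5.01 with siCONTROL, the second value under the limit. AFG3L2, the protease that matures MRPL32, differed by -0.38, GTPBP10 by -0.29 and RPUSD4 by -0.27. MRPL32 itself had 5.40 with siP62 and 5.50 with siCONTROL. Ribosomal protein genes named outside the scheme went both ways, with CHCHD1 at 0.36, PTCD3 at 0.18, FAU at -0.11 and DAP3 at -0.22.

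**Figure D5:**
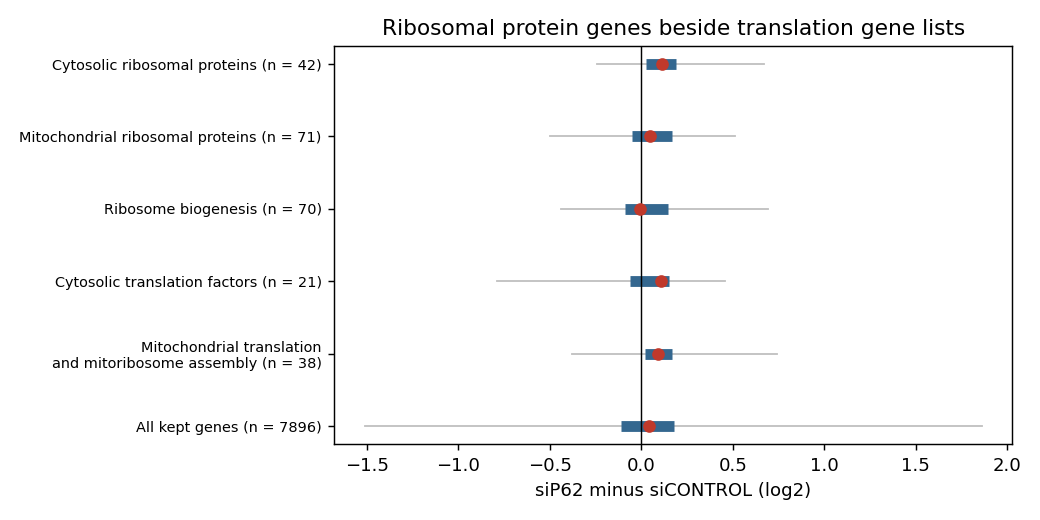
For each list, the red point is the median siP62 minus siCONTROL difference on the log2 scale, the thick bar the quartile range and the thin line the lowest and highest kept gene. The medians of the cytosolic ribosomal proteins (0.115) and the cytosolic translation factors (0.11) lie above that of all kept genes (0.04). So do those of mitochondrial translation and mitoribosome assembly (0.090) and, slightly, of the mitochondrial ribosomal proteins (0.05). The median of ribosome biogenesis (-0.010) lies below.

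For members with more than 1 probe set the differences can be set side by side. RPL41 had 5 probe sets with differences of -0.10 to 0.14, RPL19 had 0.02 and -0.02, and RPL39 had 0.06 and 0.16. MRPS2 had 0.14 and 0.21 and MRPS16 had 0.14 and 0.16. For MRPL44 they were -0.01 and, in a probe set under the limit, 0.08. The 7 probe sets of MRPS18B held the same values, 7.55 with siP62 and 7.60 with siCONTROL, and so count as a single measurement. For 7 cytosolic members the probe set used stood apart in its number. The 10 named probe sets nearest by number belonged to genes of chromosome 3 for RPS18, of chromosome 12 for RPS27 and of chromosome 11 for RPS28, while the genes lie on chromosomes 6, 1 and 19. For RPL10, RPL12, RPL31 and RPL41 the nearest probe sets were of 4 to 9 chromosomes and none was of the gene's own. The other probe set of RPS18, whose neighbours were all of chromosome 6, had 7.24 with siP62 and 7.05 with siCONTROL, a difference of 0.19. Whether these probe sets read processed copies of the genes was not tested, and without the 7 genes the cytosolic median was 0.13.

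The RNAs named after ribosomal protein genes did not follow a common direction. MRPL23-AS1 had 5.60 with siP62 and 5.76 with siCONTROL, and MRPL23 was also lower. RPL26L1-AS1 had 5.68 with siP62 and 5.82 with siCONTROL, while RPL26L1 was higher. MRPL20-AS1 had 5.25 with siP62 and 4.88 with siCONTROL, both under the limit, while MRPL20 was lower. RPL34-DT (0.17) and the readthrough of RPL36A into HNRNPH2 (0.13) were also under the limit. The identity of the cells was checked by markers, of which KRT8, KRT18, KRT19, EPCAM and LPCAT1 were above the limit in both arrays. The alveolar markers SFTPC, SFTPA1, SFTPA2, NAPSA and NKX2-1 were below it in both. SFTPD had 5.27 with siP62 and 5.85 with siCONTROL, and SFTPB had 5.30 with siP62 and 5.66 with siCONTROL, so both were under the limit in the siP62 array alone. Of the markers of other cells, 2 of 4 leukocyte, 1 of 2 fibroblast and 1 of 6 endothelial markers were kept. The leukocyte markers CD68 and CD14 were above the limit in both arrays. CD68 had 8.42 with siP62 and 8.48 with siCONTROL, and CD14 had 5.94 with siP62 and 5.98 with siCONTROL. CLDN5 (0.63) and LUM (0.47) were higher in the siP62 array from siCONTROL values under the limit. The part of these kept markers in the results was not tested.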

How the data were processed

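For 48226 probe sets the deposited file gave a log2 value in each array. The submitters' processing notes name RMA and, for the analysis, Transcriptome Analysis Console (4.0.2.15), and labelled cDNA was made from 100 ng of RNA, per the labels' protocols. RMA includes quantile normalization, as commonly defined, so a shift shared by all genes would not be seen. Not given in the sources used here are the genome build, the annotation and the arrays that entered RMA. Arrays give no depth, and their number limits the precision. Of the probe sets 16098 had 1 gene symbol in the platform annotation, 0 had several and 32128 were unnamed here. The gene identifiers were matched to the RefSeq table of GRCh38.p14, which changed 0 member symbols.

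Values were read in Python 3.11.15 with pandas 2.3.3. The probe set with the highest mean stood for a gene, and 7896 genes (53.1%) passed the filter. Differences were described by counts and medians beside all kept genes, with no test and no p-value. The counting was tested on simulated data. Named genes were all cytosolic and paralog members, the 8 highest and 8 lowest mitochondrial members, the partners of paralogs, SQSTM1, and the 3 highest and 3 lowest genes of each of 4 translation lists, and 4 marker lists were checked. The members and lists were chosen with earlier results of these data known. Further members and markers are named to account for them. Motifs were searched by letters on both strands of RefSeq promoters. Alternatives were centring on the median or a loess curve, quantile normalization, the mean over probe sets, and other filters.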

Additional observations from a re-analysis of the deposited data

How the results depend on the processing

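The cytosolic median stayed above 0 in every setting tried, between 0.075 and 0.13, and above the median of all kept genes in the same setting. It was 0.075 once the median of all kept genes was subtracted and also after quantile normalization of the columns. The number of cytosolic genes at least 1.5-fold higher was then 1 in place of 2, as it also was after loess centring, because RPL6 fell under the limit. It was 9 at 1.2-fold, including RPL31 and RPL37A, while the mitochondrial counts there were 9 higher and 4 lower. The number of cytosolic genes below 0 was 11 with the median subtracted, 12 with loess, 9 with quantile normalization and 3 under a filter at the 70th percentile. The cytosolic small subunit median was 0.070, 0.069 and 0.073 under the 3 centrings in that order.

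The mitochondrial median was 0.010 with the median subtracted, 0.024 with loess, and 0.030 both with quantile normalization and under a filter at the 70th percentile. The mitochondrial large subunit median turned to -0.035 with the median subtracted, -0.040 with loess and -0.030 with quantile normalization. It was 0.020 with the mean over probe sets and 0.00 when both values had to pass the limit, a setting added after the data were seen. The mitochondrial small subunit median was 0.060 with the median subtracted and 0.054 with loess. The paralog median turned to -0.0050 with the median subtracted, -0.0008 with loess and -0.035 without a filter, and was 0.013 with quantile normalization and 0.055 with the filter at the 70th percentile. RPL9, RPL6 and RPL22L1, the members past 1.5-fold, kept their direction under the centrings, quantile normalization and the mean over probe sets. These settings could not have shown otherwise, and so say nothing on how firm the directions are. The smallest of these differences was 0.59, against a subtracted median of 0.04. Each of these genes has 1 probe set, so the mean over probe sets leaves its value unchanged. Subtracting a centre moves every gene by construction, and for the other settings the cause was not tested. No paired analysis was possible because each group has 1 array. With no detection call and 1 array per group, values near or below the limit, such as those of RPL22 and the siCONTROL value of RPL22L1, cannot be told from background.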

Other observations

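The 26 pseudogenes left out by name included 10 above the filter limit, with a median difference of -0.040. The highest was RPL23AP82, with 5.87 with siP62 and 4.97 with siCONTROL, the siCONTROL value under the limit. RPL13AP20 had 11.72 with siP62 and 11.30 with siCONTROL, and RPL21P28 had 9.26 with siP62 and 8.89 with siCONTROL. RPL23AP32 was lower, with 5.20 with siP62 and 5.78 with siCONTROL. RPS19BP1, which encodes a binding protein of RPS19 and no ribosomal protein, differed by -0.09.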
